A study of Mus musculus with 6 samples.

Results

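Genes of the prostaglandin and leukotriene pathways were followed over 3 populations of mouse bone marrow cells. The members were chosen by name: 10 genes that encode enzymes, a helper protein and receptors, out of 19938 genes with a probe set of their own on the array. Of the 10, 9 had 1 such probe set each and are described here, and Ptgs1 had no such probe set and was not analysed. RNA of 6 samples, 2 per population, was hybridised to 1 Affymetrix array each. The cells were grown for 7 days from marrow of C57BL/6J mice, which the labels call male and 6 to 10 weeks old. GM-BMDC (called dendritic cells in the labels, sorted as MHCIIhighF4/80low) and GM-BMM (called macrophages, sorted as MHCIIlowF4/80high) came from cultures that received 25 ng/ml of GM-CSF throughout, and are thus sorted fractions of the same kind of culture. M-BMM (called macrophages, sorted as CD11b+F4/80+) were grown with 20% medium conditioned by L cells, which supplies M-CSF together with whatever else those cells release. The labels call the 2 samples of each population biological replicates. How many mice or cultures stand behind a sample is not stated, so p-values measure the spread between these arrays, which may be technical in part.

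Both pathways start from arachidonic acid, which phospholipases free from membranes. The cyclooxygenases, encoded by Ptgs1 and Ptgs2, turn it into prostaglandin H2, and the microsomal prostaglandin E synthase encoded by Ptges turns that into prostaglandin E2, which acts on neighbouring cells through receptors such as EP2 (Ptger2) and EP4 (Ptger4). On the other branch 5-lipoxygenase (Alox5), aided by its activating protein (Alox5ap), makes leukotriene A4, from which Lta4h makes leukotriene B4, an attractant of leukocytes, and Ltc4s makes leukotriene C4, the first cysteinyl leukotriene. Alox15 encodes a 12/15-lipoxygenase. Macrophages and dendritic cells are known sources of both kinds of mediator.

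Ptgs2 and Ptges, which encode the enzymes of prostaglandin E2 synthesis, were highest in GM-BMM and lower in both GM-BMDC and M-BMM. Alox5 was higher in both GM-CSF populations than in M-BMM, and Ltc4s was higher in GM-BMDC than in M-BMM. Ptger4 was highest in GM-BMDC. Alox5ap and Lta4h did not pass the test in any of the 3 comparisons. Every value is an RMA log2 signal, and a gene passed when its adjusted p in limma, with Benjamini-Hochberg adjustment over all 19938 genes, was at most 0.05. In these bulk samples fewer cells that carry an RNA and less of it per cell cannot be told apart. The arrays mark no background. No member fell under 5.04, the 25th percentile of all values, in any array, but this does not show that each was expressed. The 8 fibroblast markers averaged 5.78 to 6.11 over the arrays, with 1 of them under 5.04 in every array. Alox15, at 5.63 to 6.52, lay near that range.

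The promoter windows of 5 members that differed between populations are shown because they are the nearest sequence to the RNA differences below: Ptgs2 and Ptges, which were highest together in GM-BMM, Ptger4 and Ltc4s, which had their highest mean in GM-BMDC, and Alox5, which was low in M-BMM. Each runs 5′ to 3′ along the gene from 250 bases before its RefSeq start to 50 after it, in build GRCm38.p6. Capitals mark matches, on either strand, to a TATA box (TATAAA), the cyclic AMP response element (TGACGTCA) or its core (TGACG), and motifs of C/EBP (TTNNGNAA), AP-1 (TGANTCA), Sp1 (GGGCGG), PU.1 (AGGAAGT) and an E-box (CACGTG). Ptgs2 lies at chr1:150099781-150100080 on the plus strand, Ptges at chr2:30903248-30903547 on the minus strand, Ptger4 at chr15:5244138-5244437 on the minus strand, Alox5 at chr6:116461129-116461428 on the minus strand and Ltc4s at chr11:50238483-50238782 on the minus strand.
Ptgs2: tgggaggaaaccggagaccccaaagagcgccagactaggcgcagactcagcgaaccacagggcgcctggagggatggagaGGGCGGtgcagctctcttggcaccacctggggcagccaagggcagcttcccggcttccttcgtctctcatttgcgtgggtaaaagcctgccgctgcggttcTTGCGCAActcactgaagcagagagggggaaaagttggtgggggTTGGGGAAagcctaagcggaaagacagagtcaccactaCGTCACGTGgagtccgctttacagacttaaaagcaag
Ptges: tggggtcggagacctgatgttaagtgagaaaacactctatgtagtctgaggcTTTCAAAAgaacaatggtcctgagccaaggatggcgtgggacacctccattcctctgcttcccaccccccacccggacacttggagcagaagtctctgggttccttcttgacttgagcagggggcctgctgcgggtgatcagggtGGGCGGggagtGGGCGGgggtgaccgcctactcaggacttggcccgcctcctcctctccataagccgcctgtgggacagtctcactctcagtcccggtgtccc
Ptger4: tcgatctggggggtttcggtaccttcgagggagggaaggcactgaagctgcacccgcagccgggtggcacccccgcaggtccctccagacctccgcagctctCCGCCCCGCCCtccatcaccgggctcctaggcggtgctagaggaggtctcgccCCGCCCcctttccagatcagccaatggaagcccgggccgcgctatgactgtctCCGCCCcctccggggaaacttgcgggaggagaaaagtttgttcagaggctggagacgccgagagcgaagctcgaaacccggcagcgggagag
Alox5: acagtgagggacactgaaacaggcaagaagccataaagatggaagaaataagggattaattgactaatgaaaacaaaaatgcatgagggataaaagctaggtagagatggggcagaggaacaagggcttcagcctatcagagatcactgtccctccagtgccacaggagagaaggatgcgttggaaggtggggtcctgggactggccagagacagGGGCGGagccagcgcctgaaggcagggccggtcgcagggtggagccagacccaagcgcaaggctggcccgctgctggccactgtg
Ltc4s: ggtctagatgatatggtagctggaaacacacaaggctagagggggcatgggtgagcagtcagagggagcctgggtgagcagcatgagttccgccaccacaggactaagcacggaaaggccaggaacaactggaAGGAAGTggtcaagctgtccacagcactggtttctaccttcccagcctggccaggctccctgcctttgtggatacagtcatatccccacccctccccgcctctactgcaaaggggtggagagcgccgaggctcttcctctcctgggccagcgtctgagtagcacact

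The RefSeq table held such a window for 8 of the 10 members. The Ptgs2 window held 2 C/EBP matches, which begin 69 and 25 bases before the start, 1 Sp1 match, and, just after the start, the core of the cyclic AMP response element overlapping an E-box. Over all 32851 windows of this length, 40.7% held the C/EBP motif, 35.7% the Sp1 motif, 20.8% the core TGACG and 7.15% the E-box. Ptges held 2 Sp1 matches, at 53 and 42 bases before the start, and 1 C/EBP match farther upstream. Ptger4, whose window is 67.0% G and C against a median of 52.7% over all windows, held 4 Sp1 matches, of which the first 2 overlap by a base. Alox5 held 1 Sp1 match, 35 bases before the start, and Ltc4s held 1 PU.1 match, 117 bases before it, a motif found in 9.35% of all windows. None of the 5 windows held the TATA box (13.6% of all windows), the full cyclic AMP response element (1.79%) or the AP-1 motif (7.81%) as spelled here. Ptgs2 and Ptges, which had like profiles over the arrays, both held C/EBP and Sp1 letters, which are common over all windows. Ptger4 and Alox5, with other profiles, held Sp1 letters too, and a link of letters to levels was not tested. A match describes letters and not a bound site.

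Before the comparisons, the arrays were checked against their labels. The mean log2 level of 10 dendritic cell markers was 10.13 to 10.36 in GM-BMDC, 7.64 to 7.83 in GM-BMM and 5.94 to 6.02 in M-BMM, and that of 9 macrophage markers was 9.11 to 10.06, 11.18 to 11.40 and 11.01 to 11.07. H2-Aa, H2-Ab1, Adgre1 and Itgam on these lists belong to the sort gates. Although all samples are labelled male, Xist, the RNA of the inactive X chromosome, was between 10.68 and 11.66 in both GM-BMDC arrays and GM-BMM replicate 1, and between 4.53 and 4.93 in the other 3. The Y-linked Eif2s3y was low in replicate 1 of GM-BMDC (3.94) and of GM-BMM (3.66), and 8.80 to 9.32 elsewhere. GM-BMDC replicate 2 thus carried both. High Xist thus occurred in GM-CSF arrays and in neither M-BMM array, so the sex of the mice cannot be fully told apart from the culture in comparisons with M-BMM. Member results are set below beside those without the 2 arrays that lacked Y-linked RNA. This leaves 1 array in each GM-CSF population, assumed to vary like the 2 M-BMM arrays, so its differences are given without p-values. The calls of this setting still enter the counts of alternatives below, which rest on that assumption to this extent. GM-BMDC replicate 2, with its high Xist, stays in that setting, which therefore does not remove the difference in Xist. A Y-linked covariate, the averaged level of Eif2s3y, Uty and Kdm5d, was a further alternative.

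**Figure D1:**
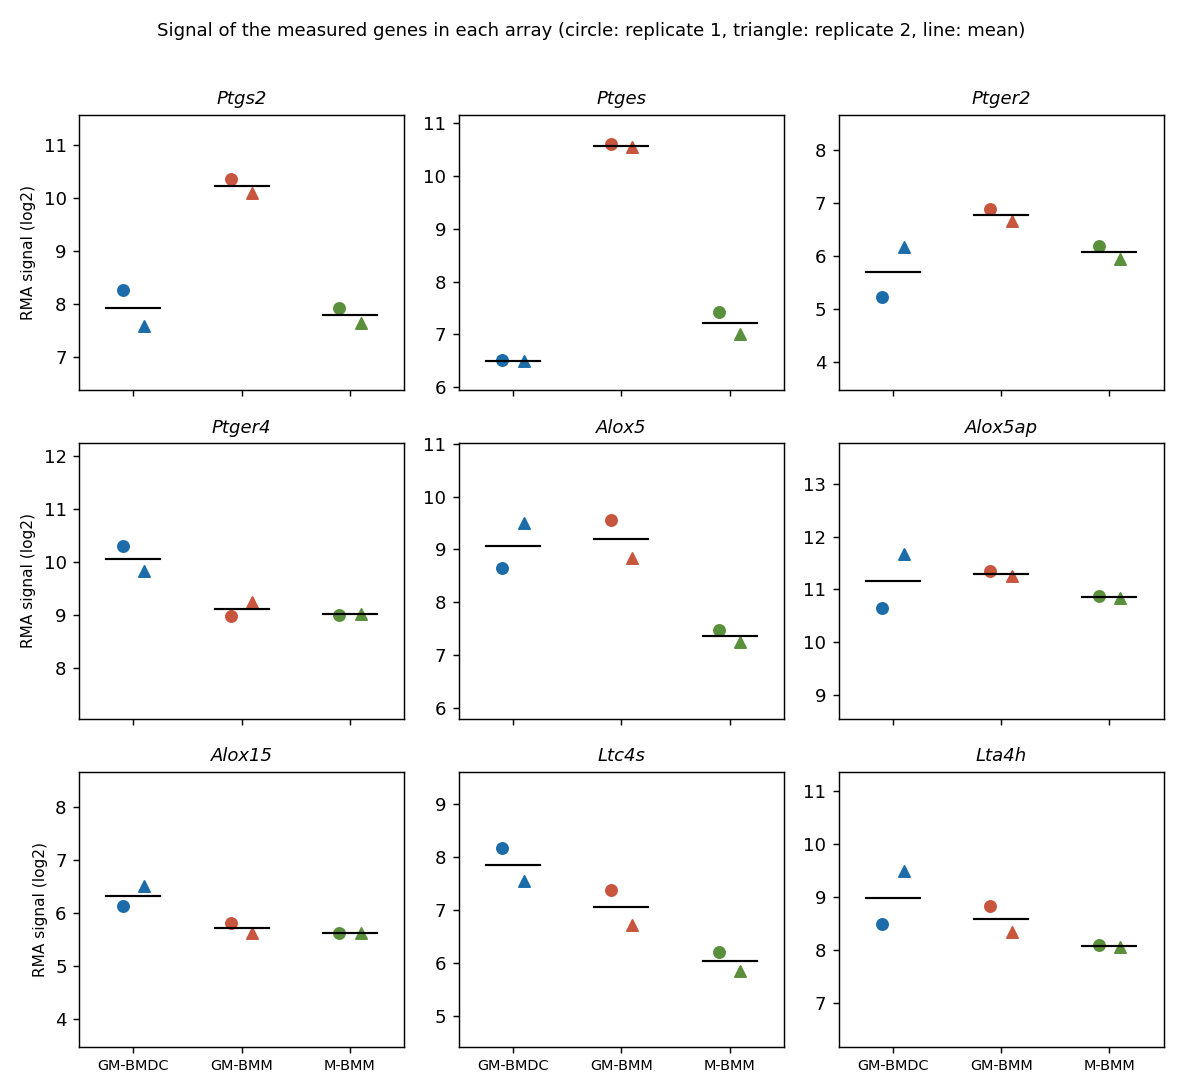
Log2 RMA signal (vertical axis, the same span in each panel) of the 9 measured genes in GM-BMDC, GM-BMM and M-BMM; circles are replicate 1, triangles replicate 2 and lines the mean of 2 arrays. Ptgs2 and Ptges stand highest in GM-BMM, Alox5 is lowest in M-BMM, and Alox5ap, Alox5 and Lta4h differ between the 2 GM-BMDC arrays by 1.02, 0.84 and 1.00.

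Of the prostaglandin enzymes, Ptges, the inducible synthase of prostaglandin E2, measured 10.60 and 10.54 in the GM-BMM arrays, 6.52 and 6.49 in GM-BMDC, and 7.42 and 7.01 in M-BMM. The 3 populations did not overlap, with GM-BMM far above the others and GM-BMDC lowest. Ptges was 16.7-fold lower in GM-BMDC than in GM-BMM (log2 difference -4.06 ± 0.15, standard error, n = 2 arrays per population; limma adjusted p = 4.23e-05) and 10.2-fold higher in GM-BMM than in M-BMM (3.35 ± 0.15; limma adjusted p = 4.54e-05). GM-BMDC were 1.63-fold below M-BMM (-0.71 ± 0.15; limma adjusted p = 0.0182). Both calls against GM-BMM held in all 16 alternative settings, whereas the call of GM-BMDC against M-BMM was lost in 6 of 16, among them without either GM-BMDC array (adjusted p = 0.0725 and 0.0655 in limma) and without M-BMM replicate 1 (0.106).

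Ptgs2 encodes cyclooxygenase 2, the inducible enzyme that precedes the synthase. It measured 10.36 and 10.09 in GM-BMM, 8.27 and 7.58 in GM-BMDC, and 7.93 and 7.64 in M-BMM. Both GM-BMM arrays exceeded every other array, and the GM-BMDC and M-BMM arrays overlapped. Ptgs2 was 4.91-fold lower in GM-BMDC than in GM-BMM (-2.30 ± 0.23; limma adjusted p = 0.00125) and 5.41-fold higher in GM-BMM than in M-BMM (2.44 ± 0.23; limma adjusted p = 0.00119), in the main test and in all 16 alternatives. GM-BMDC and M-BMM differed by 0.14 (95% interval -0.40 to 0.68; limma adjusted p = 0.778). Without both GM-CSF arrays numbered 1 the first 2 differences were -2.51 and 2.30 for Ptgs2, and -4.05 and 3.33 for Ptges. GM-BMDC minus M-BMM was then -0.21 for Ptgs2 and -0.72 for Ptges.

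The receptor gene Ptger4 had another order of populations than Ptgs2 and Ptges. Ptger4 encodes EP4, a prostaglandin E2 receptor that raises cyclic AMP. Its levels were 10.30 and 9.82 in GM-BMDC, 8.98 and 9.25 in GM-BMM, and 9.0 and 9.02 in M-BMM. The GM-BMDC arrays stood above the other 4, and those of GM-BMM and M-BMM overlapped. Ptger4 was 1.92-fold higher in GM-BMDC than in GM-BMM (0.94 ± 0.18; limma adjusted p = 0.0159) and 2.07-fold higher than in M-BMM (1.05 ± 0.18; limma adjusted p = 0.00672), while GM-BMM and M-BMM differed by 0.11 (95% interval -0.31 to 0.52). The call against GM-BMM was lost in 8 of 16 alternatives, among them without GM-BMDC replicate 1 (0.70), GM-BMM replicate 1 (0.81) or both (0.57). It was lost also without either M-BMM array, which equals fitting only these groups (0.94; limma adjusted p = 0.0534). The others were all probe sets as features (0.0604) and a 2-fold minimum. The call against M-BMM was lost without M-BMM replicate 1 (1.04) or replicate 2 (1.06). Without both GM-CSF arrays numbered 1 the difference of GM-BMDC against M-BMM was 0.81.

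Ptger2 encodes EP2, another receptor that raises cyclic AMP. It was nearer the low end of the array, with levels of 6.89 and 6.66 in GM-BMM, 6.19 and 5.95 in M-BMM, and 5.23 and 6.16 in GM-BMDC. GM-BMM stood above the rest, and the GM-BMDC arrays lay 0.94 apart. No comparison passed: the differences were -1.08 ± 0.28 for GM-BMDC minus GM-BMM (limma adjusted p = 0.0522), 0.71 ± 0.28 for GM-BMM minus M-BMM (0.222) and -0.37 ± 0.28 for GM-BMDC minus M-BMM (0.463). The first passed with arrays centred on their medians (-1.14; limma adjusted p = 0.0432), and was -1.55 without GM-BMDC replicate 2. Without both GM-CSF arrays numbered 1 the 3 differences were -0.50, 0.59 and 0.09. The second passed when GM-BMM and M-BMM were fitted alone or without either GM-BMDC array (limma adjusted p = 0.037), and the third passed without GM-BMDC replicate 2 (-0.84; 0.023).

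**Figure D2:**
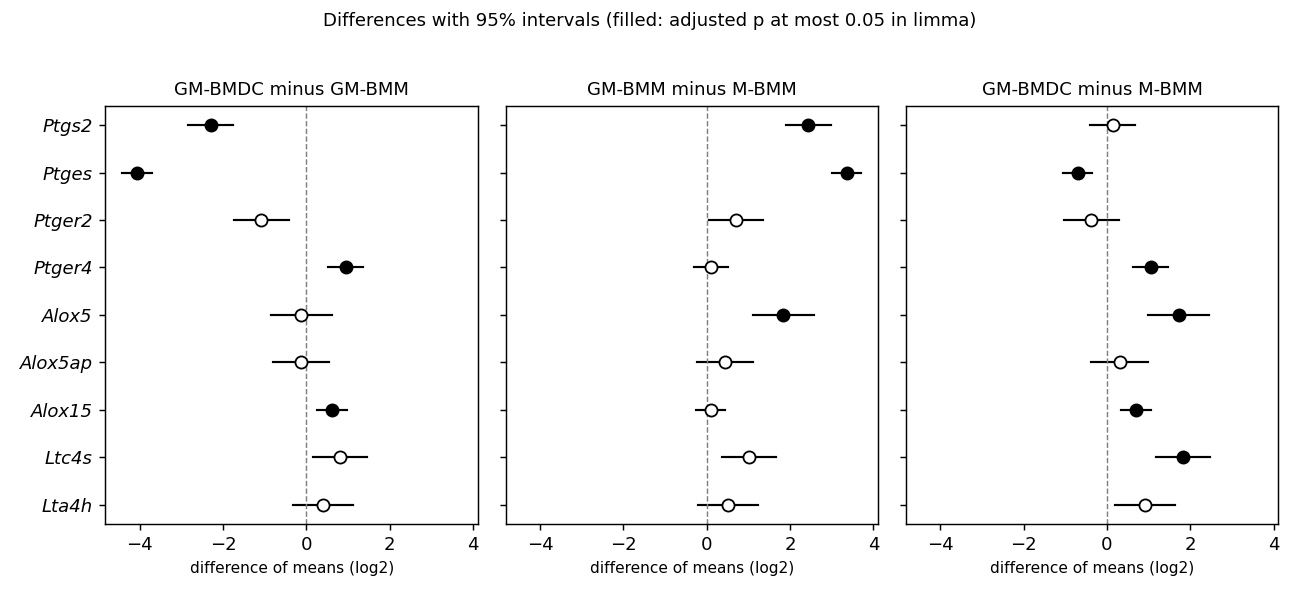
Differences of group means (log2, horizontal axis) for the 9 genes in the 3 comparisons, with 95% intervals from limma; filled points passed the adjusted threshold of 0.05. Ptges and Ptgs2 show the widest differences against GM-BMM, at -4.06 and -2.30 in GM-BMDC minus GM-BMM, and the intervals of Alox5 lie above 0 in both comparisons with M-BMM.

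On the leukotriene branch, Alox5 encodes 5-lipoxygenase, which makes leukotriene A4. It measured 8.65 and 9.50 in GM-BMDC, 9.56 and 8.83 in GM-BMM, and 7.47 and 7.25 in M-BMM. All 4 arrays of the GM-CSF cultures lay above both M-BMM arrays, and the GM-CSF populations overlapped. Alox5 was 3.57-fold higher in GM-BMM than in M-BMM (1.84 ± 0.32; limma adjusted p = 0.0157) and 3.29-fold higher in GM-BMDC than in M-BMM (1.72 ± 0.32; limma adjusted p = 0.00973). GM-BMDC and GM-BMM differed by -0.12 (95% interval -0.86 to 0.62), and this sign was not stable. Leaving out replicate 1 of GM-BMDC or of GM-BMM gave 0.30 and 0.25, and leaving out both gave 0.67. In that last setting the differences of Alox5 against M-BMM were 1.47 in GM-BMM and 2.14 in GM-BMDC. Both calls were lost without M-BMM replicate 1 or 2, with limma adjusted p of 0.12 and 0.166 for GM-BMM minus M-BMM and 0.0708 and 0.0899 for GM-BMDC minus M-BMM. The call in GM-BMM was lost also without GM-BMM replicate 1 (1.47; limma adjusted p = 0.0616), with all probe sets as features (0.0649) and with the Y-linked covariate (0.0526).

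Alox5ap encodes the membrane protein that hands arachidonic acid to 5-lipoxygenase. It measured 10.65 and 11.67 in GM-BMDC, 11.34 and 11.25 in GM-BMM, and 10.88 and 10.83 in M-BMM. The GM-BMDC arrays spanned all the others. The differences were -0.14 (95% interval -0.81 to 0.54) for GM-BMDC minus GM-BMM, 0.44 (-0.24 to 1.11) for GM-BMM minus M-BMM and 0.30 (-0.37 to 0.98) for GM-BMDC minus M-BMM. Each GM-BMDC array alone gave another sign. Without replicate 1, GM-BMDC minus M-BMM was 0.81 (limma adjusted p = 0.014) and GM-BMDC minus GM-BMM 0.38 (0.213), and without replicate 2 they were -0.21 (0.404) and -0.65 (0.0318). Without both GM-CSF arrays numbered 1 the difference of GM-BMDC to M-BMM was also 0.81.

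Ltc4s encodes leukotriene C4 synthase. Its levels were 8.17 and 7.54 in GM-BMDC, 7.37 and 6.72 in GM-BMM, and 6.21 and 5.85 in M-BMM. The 3 populations did not overlap, with GM-BMDC on top, GM-BMM between and M-BMM lowest. Only the ends of this order passed: Ltc4s was 3.54-fold higher in GM-BMDC than in M-BMM (1.82 ± 0.28; limma adjusted p = 0.00412), and the steps from M-BMM to GM-BMM (1.02 ± 0.28; limma adjusted p = 0.0826) and from GM-BMM to GM-BMDC (0.81 ± 0.28; 0.125) did not. The call held in 15 of 16 alternatives and was lost without M-BMM replicate 2 (1.64; limma adjusted p = 0.0538). With the replicate number as a block, both steps passed (limma adjusted p = 0.0065 and 0.0115), but whether the numbers pair the arrays is not known. The lower step passed also without GM-BMM replicate 2 (1.34; limma adjusted p = 0.039), and the upper step with the Y-linked covariate (0.80; 0.0206). Without both GM-CSF arrays numbered 1, GM-BMDC minus M-BMM was 1.51, and the steps were 0.69 and 0.82.

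Lta4h encodes the hydrolase that makes leukotriene B4. It measured 8.49 and 9.49 in GM-BMDC, 8.84 and 8.34 in GM-BMM, and 8.10 and 8.06 in M-BMM. All GM-CSF arrays lay above M-BMM, by 0.51 ± 0.31 in GM-BMM (limma adjusted p = 0.459) and 0.91 ± 0.31 in GM-BMDC (0.0945), and neither passed. GM-BMDC minus M-BMM passed without GM-BMDC replicate 1 (1.41; limma adjusted p = 0.0106). Without both GM-CSF arrays numbered 1, the difference of GM-BMDC was 1.41 against M-BMM and 1.15 against GM-BMM. Without GM-BMDC replicate 2, by contrast, GM-BMDC minus M-BMM was 0.42 (limma adjusted p = 0.289) and GM-BMDC minus GM-BMM, 0.40 in the main test, was -0.09 (0.861).

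Alox15 encodes the lipoxygenase that is known in mouse for high levels in resident peritoneal macrophages and eosinophils. It was low on this array scale, at 6.14 and 6.52 in GM-BMDC, 5.82 and 5.63 in GM-BMM, and 5.63 in both M-BMM arrays. The GM-BMDC arrays stood slightly above the other 4. The difference was 1.52-fold against GM-BMM (0.61 ± 0.15; limma adjusted p = 0.0472) and 1.63-fold against M-BMM (0.70 ± 0.15; limma adjusted p = 0.0195), and these calls were lost in 11 and 6 of 15 alternatives. The first was lost without GM-BMDC replicate 2 (0.42; limma adjusted p = 0.152), GM-BMM replicate 1 (0.071), GM-BMM replicate 2 (0.193) or either M-BMM array (0.109), with the replicate block (0.0659), and with arrays centred on their medians (0.071). The second was lost without GM-BMDC replicate 2 (limma adjusted p = 0.0692) or M-BMM replicate 1 (0.126) or 2 (0.111). Without both GM-CSF arrays numbered 1 the difference was 0.89 against each population.

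As a group, 4 of the 9 members passed in GM-BMDC minus GM-BMM, 2 higher (Ptger4, Alox15) and 2 lower (Ptgs2, Ptges), or 44.4%, where limma called 10.4% of all genes (4.69% higher, 5.74% lower). In GM-BMM minus M-BMM 3 passed, all higher (Ptgs2, Ptges, Alox5), or 33.3% against 6.19% of all genes (3.62% higher, 2.57% lower). In GM-BMDC minus M-BMM 5 passed, with Ptger4, Alox5, Alox15 and Ltc4s higher and Ptges lower, or 55.6% against 16.7% of all genes (7.76% higher, 8.90% lower). With a minimum of 2-fold as well, 2, 3 and 3 members passed in these comparisons, where 4.69%, 3.02% and 6.95% of all genes did. The share over all genes includes those of low signal. Fitted to genes above the median signal, where 7 of the 9 members lay, limma called 20.9%, 13% and 31.9% of genes. With arrays centred on their medians, the 4 calls in GM-BMDC minus GM-BMM were 1 higher and 3 lower. The median size of a member's log2 difference was 0.81, 0.71 and 0.71 in the 3 comparisons, and that over all genes 0.15, 0.14 and 0.17. The comparisons share arrays and the members were chosen with earlier results of these data known, so these shares are descriptions. The counts depended on single arrays: without either M-BMM array 2 members passed in GM-BMDC minus GM-BMM and 1 in GM-BMDC minus M-BMM (Ltc4s without replicate 1, Ptges without replicate 2), and without GM-BMM replicate 1, 2 passed in GM-BMDC minus GM-BMM. Calls over all genes fell as well without either M-BMM array, to 6.05% of genes in GM-BMDC minus GM-BMM and to 6.46% and 7.33% in GM-BMDC minus M-BMM, and without GM-BMM replicate 1 to 8.9% in GM-BMDC minus GM-BMM.

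The 2 GM-BMDC arrays differed in several members together with macrophage markers. Replicate 2 exceeded replicate 1 by 1.02 in Alox5ap, 1.00 in Lta4h, 0.94 in Ptger2, 0.84 in Alox5 and 0.38 in Alox15, and was lower by 0.69 in Ptgs2, 0.63 in Ltc4s and 0.48 in Ptger4, with Ptges at -0.03. All 9 macrophage markers were higher in replicate 2, by 0.54 (Mertk) to 1.51 (Adgre1), and the 10 dendritic cell markers differed by -0.53 (Batf3) to 0.08 (H2-Ab1). GM-BMDC replicate 2 therefore lay nearer the macrophage arrays in these markers. Their part in the member values was not tested.

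**Figure D3:**
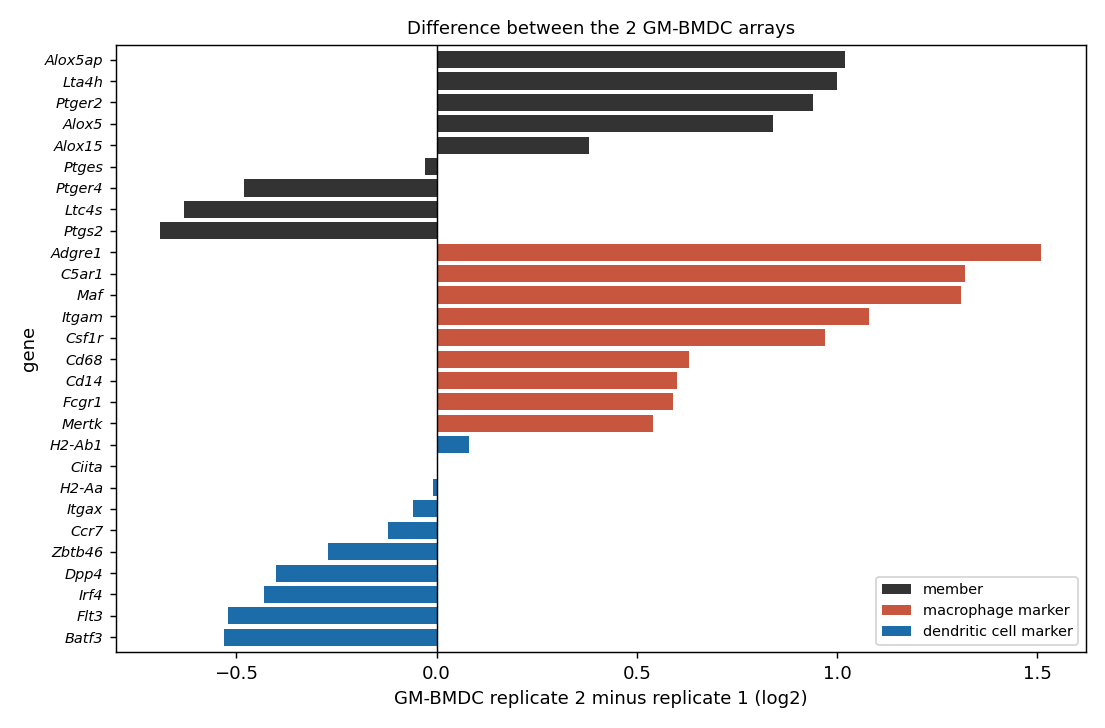
Difference between the 2 GM-BMDC arrays (replicate 2 minus replicate 1, log2, horizontal axis) for the 9 members, 9 macrophage markers and 10 dendritic cell markers. All macrophage markers lie above 0 (0.54 to 1.51), as do Alox5ap, Lta4h, Ptger2, Alox5 and Alox15, while Ptgs2, Ltc4s and Ptger4 lie below 0.

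Cell types known for these genes were looked at through their markers. Over the arrays, the mean level of 10 mast cell and basophil markers was 4.87 to 5.23, with 5 of the 10 under 5.04 in every array, and that of 7 eosinophil markers was 5.47 to 6.34. Both lists were highest in GM-BMM replicate 1, at 5.23 and 6.34 against 4.87 and 5.54 in replicate 2. Replicate 2 minus replicate 1 of GM-BMM was -0.73 in Alox5, -0.65 in Ltc4s and -0.50 in Lta4h. The neutrophil list ranged from 6.32 to 7.23 and the 5 measured platelet markers from 7.42 to 8.87, again with their highest value in GM-BMM replicate 1. Single markers of these lists were highest in GM-BMM, as Ptgs2 and Ptges were. The neutrophil collagenase gene Mmp8 measured 12.91 and 11.78 in GM-BMM, 9.93 and 11.04 in GM-BMDC, and 8.75 and 8.20 in M-BMM, with limma adjusted p of 0.0416 against GM-BMDC and 0.003 against M-BMM. Pf4 passed in both too (limma adjusted p = 0.0034 and 0.0198). Of the 10 neutrophil markers 1 was higher and 1 lower in GM-BMM than in M-BMM, and of the 5 platelet markers 2 were higher and 1 lower, and against GM-BMDC 1 marker of each list was higher in GM-BMM. The 8 fibroblast markers ranged from 5.78 to 6.11 and the 6 measured markers of resident peritoneal macrophages from 6.47 to 6.73, with Gata6, which defines those macrophages, at 5.38 to 5.76. Ptgs2 and Ptges, the members highest in GM-BMM, differed between its arrays by -0.27 and -0.05 (replicate 2 minus 1). The part of other cell types in the member levels was not tested.

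Of 48 other genes of the pathways, listed by role, 44 were measured. In GM-BMDC minus GM-BMM 0 were higher and 6 lower by limma, or 13.6% against 10.4% of all genes. In GM-BMM minus M-BMM 6 were higher and 1 lower, or 15.9% against 6.19%, and in GM-BMDC minus M-BMM 4 were higher and 6 lower, or 22.7% against 16.7%. The shares in the first and last comparisons are near those of all genes. Without M-BMM replicate 1 or 2, 3 and 3 genes passed in GM-BMM minus M-BMM, and 4 and 5 in GM-BMDC minus M-BMM. Over all genes the share called then fell to 1.71% and 1.6% in GM-BMM minus M-BMM, and to 6.46% and 7.33% in GM-BMDC minus M-BMM.

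Among the 10 measured genes for the release of arachidonic acid, Pla2g4a encodes the cytosolic enzyme that supplies arachidonic acid to both branches. It measured 7.19 and 7.81 in GM-BMDC, 8.93 and 8.76 in GM-BMM, and 8.69 and 8.49 in M-BMM. GM-BMDC lay below the other 4 arrays, 2.54-fold under GM-BMM (-1.35 ± 0.21; limma adjusted p = 0.00708) and 2.13-fold under M-BMM (-1.09 ± 0.21; limma adjusted p = 0.0109). The second call was lost without M-BMM replicate 1 (-0.99; limma adjusted p = 0.108) or replicate 2 (0.0612) and with the Y-linked covariate (0.0507). Pla2g15, a lysosomal phospholipase, was highest in M-BMM, 1.64-fold over GM-BMM (-0.72 ± 0.13; limma adjusted p = 0.0208) and 2.02-fold over GM-BMDC (-1.01 ± 0.13; 0.00213). Its call in GM-BMM minus M-BMM was lost without GM-BMM replicate 2 or either M-BMM array (limma adjusted p = 0.0686, 0.165 and 0.138). Pla2g5, a secreted phospholipase, was 1.71-fold lower in GM-BMDC than in M-BMM (-0.78 ± 0.14; limma adjusted p = 0.0102), a call lost without M-BMM replicate 1 (0.0986). Pla2g7, which degrades platelet-activating factor, was 1.60-fold lower in GM-BMDC than in GM-BMM (-0.68 ± 0.16; limma adjusted p = 0.0371), a call lost in 8 of 16 alternatives.

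Of the other prostanoid synthases, Hpgds makes prostaglandin D2 and followed an order unlike that of Ptges. It measured 11.09 and 10.97 in M-BMM, 9.20 and 9.48 in GM-BMM, and 6.20 and 7.92 in GM-BMDC. The populations did not overlap, and M-BMM was highest. Hpgds was 15.8-fold lower in GM-BMDC than in M-BMM (-3.98 ± 0.47; limma adjusted p = 0.00141) and 4.86-fold lower than in GM-BMM (-2.28 ± 0.47; 0.0227), while GM-BMM minus M-BMM did not pass (-1.70 ± 0.47; 0.0876). The GM-BMDC arrays lay farthest apart, and with GM-BMM and M-BMM fitted alone or without either GM-BMDC array the last difference passed (limma adjusted p = 0.00129). The call against GM-BMM was lost in 7 of 16 alternatives, among them without either GM-BMM array (limma adjusted p = 0.0555 and 0.096) or either M-BMM array (0.0708), and without GM-BMDC replicate 1 or 2 the difference was -1.42 and -3.14.

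Tbxas1, the thromboxane synthase gene, was higher in both GM-CSF populations than in M-BMM, 2.14-fold in GM-BMM (1.09 ± 0.15; limma adjusted p = 0.00661) and 1.81-fold in GM-BMDC (0.85 ± 0.15; 0.00843). Both calls were lost without either M-BMM array (limma adjusted p = 0.0581 and 0.0901 in GM-BMM, 0.051 and 0.0801 in GM-BMDC). Platelets are rich in this enzyme, and of the 5 measured platelet markers Ppbp had the same order of calls: it measured 12.28 and 10.87 in GM-BMM, 9.88 and 10.43 in GM-BMDC, and 8.25 and 7.40 in M-BMM, and was 13.4-fold higher in GM-BMM (limma adjusted p = 0.00403) and 5.02-fold higher in GM-BMDC (0.0137) than in M-BMM. Pf4 measured 12.16 and 11.01 in GM-BMM, 8.78 and 9.09 in GM-BMDC, and 9.88 and 9.54 in M-BMM, and Gp9 was highest in M-BMM (6.97 and 6.83). The part of platelet RNA in the Tbxas1 levels was not tested. The prostaglandin E synthase genes Ptges2 and Ptges3 did not pass in any comparison and ranged from 6.21 to 6.65 and from 10.30 to 10.43 over the arrays. Of the 3 measured prostaglandin E synthase genes, Ptges was thus the one whose calls passed. Cbr1, a carbonyl reductase that acts on prostaglandin E2, was lower in GM-BMDC than in GM-BMM by 1.82-fold (-0.87 ± 0.16; limma adjusted p = 0.015) and than in M-BMM by 1.80-fold (-0.85 ± 0.16; 0.0109). These calls were lost without GM-BMDC replicate 1 (limma adjusted p = 0.0798 and 0.0597), the first also without GM-BMM replicate 1 (0.0601) and the second without either M-BMM array (0.0688 and 0.0927).

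Of the genes for breakdown, Ptgr1, a reductase of both prostaglandin metabolites and leukotriene B4, was highest in GM-BMM, at 9.30 and 9.34 against 7.13 and 7.81 in GM-BMDC and 8.26 and 8.06 in M-BMM. GM-BMM stood clear of both other populations. It was 3.60-fold lower in GM-BMDC than in GM-BMM (-1.85 ± 0.21; limma adjusted p = 0.00214), in all 16 alternatives. It was 2.23-fold higher in GM-BMM than in M-BMM (1.16 ± 0.21; limma adjusted p = 0.0208), a call lost without any single array of either population (0.0661 to 0.19). Its relative Ptgr2 was 1.67-fold lower in GM-BMDC than in M-BMM (-0.74 ± 0.15; limma adjusted p = 0.0134), a call lost without GM-BMDC replicate 1 (0.0584) or either M-BMM array (0.106 and 0.0845). Hpgd, which inactivates prostaglandin E2, and the transporter genes Slco2a1 and Abcc4 did not pass, with Hpgd between 5.31 and 5.88.

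Of the 7 other prostanoid receptor genes, which include those of the prostaglandin E2 receptors EP1 and EP3, Ptgir passed, which encodes the prostacyclin receptor. Ptgir measured 8.26 and 8.43 in GM-BMDC, 8.78 and 8.66 in GM-BMM, and 6.70 and 6.79 in M-BMM. Like Alox5, it was higher in all 4 GM-CSF arrays, by 3.93-fold in GM-BMM (1.97 ± 0.12; limma adjusted p = 0.000169) and 3.03-fold in GM-BMDC (1.60 ± 0.12; 0.000239), in all 16 alternatives. The other 6 genes of this list, Ptger1, Ptger3, Ptgdr, Ptgdr2, Ptgfr and Tbxa2r, passed in no comparison, with array values from 4.70 (Ptgfr) to 6.98 (Tbxa2r), and none of the 5 other lipoxygenase genes, Alox12, Alox12b, Alox12e, Alox8 and Aloxe3, did either.

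**Figure D4:**
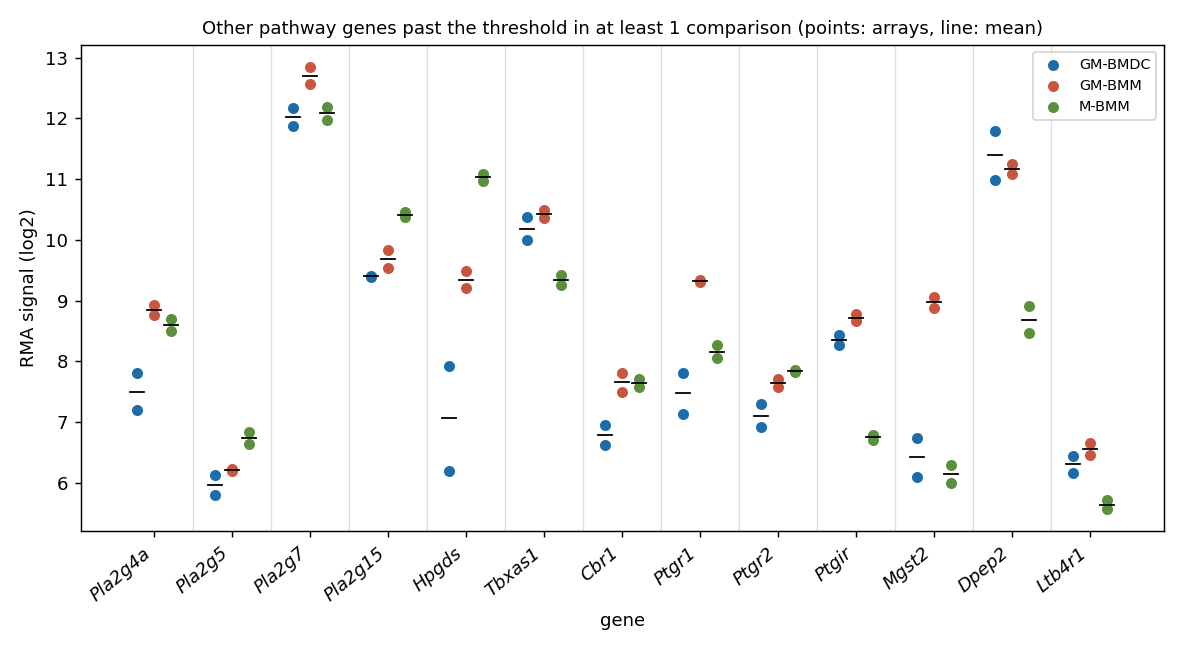
Log2 RMA signal (vertical axis) of the 13 other pathway genes past the threshold in at least 1 comparison; points are arrays, coloured by population, and lines are means of 2 arrays. Mgst2 and Ptgr1 stand highest in GM-BMM, Hpgds and Pla2g15 in M-BMM, and Dpep2 and Ptgir are lowest in M-BMM.

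Downstream of leukotriene A4, Mgst2 encodes a microsomal enzyme that can also form leukotriene C4. It measured 9.06 and 8.88 in GM-BMM, 6.73 and 6.10 in GM-BMDC, and 6.29 and 5.99 in M-BMM. It was 5.87-fold lower in GM-BMDC than in GM-BMM (-2.55 ± 0.22; limma adjusted p = 0.000627) and 7.10-fold higher in GM-BMM than in M-BMM (2.83 ± 0.22; 0.000456), in all 16 alternatives. The leukotriene C4 synthase gene Ltc4s, with its highest mean in GM-BMDC, thus had another order of populations than Mgst2. Dpep2, a dipeptidase that turns leukotriene D4 into leukotriene E4, measured 10.98 and 11.80 in GM-BMDC, 11.08 and 11.25 in GM-BMM, and 8.91 and 8.46 in M-BMM. It was 5.58-fold higher in GM-BMM (2.48 ± 0.27; limma adjusted p = 0.00217) and 6.53-fold higher in GM-BMDC (2.71 ± 0.27; 0.000667) than in M-BMM, in all 16 alternatives. Cyp4f18, a hydroxylase of leukotriene B4, varied widely within the GM-CSF populations and passed in no comparison. Its levels were 7.74 and 9.0 in GM-BMDC and 8.43 and 9.63 in GM-BMM against 7.30 and 7.16 in M-BMM.

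Of the 4 measured leukotriene receptor genes, Ltb4r1, the high-affinity receptor of leukotriene B4, passed. It was higher than in M-BMM by 1.89-fold in GM-BMM (0.92 ± 0.14; limma adjusted p = 0.01) and 1.58-fold in GM-BMDC (0.66 ± 0.14; 0.0178), on levels of 6.16 to 6.65 in the GM-CSF arrays against 5.72 and 5.56. Both calls were lost without either M-BMM array (limma adjusted p = 0.074 and 0.115 in GM-BMM, 0.0792 and 0.125 in GM-BMDC), that in GM-BMM without GM-BMM replicate 1 (0.0522) and that in GM-BMDC without GM-BMDC replicate 2 (0.0744). Cysltr1, a receptor of cysteinyl leukotrienes, was between 9.16 and 10.09 in all arrays, and the populations overlapped. Cysltr2, another such receptor, measured 7.24 and 6.20 in GM-BMM and 5.68 to 5.89 in the other arrays, and did not pass.

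Profiles over the 6 arrays were compared as a description, since the arrays share 3 populations. Among pairs of members the highest Pearson r was 0.96 (Ptgs2, Ptges), followed by 0.87 (Alox15, Lta4h), 0.84 (Alox5, Lta4h) and 0.83 (Ptges, Ptger2). Ptger4 and Ltc4s had 0.80, as did Alox5ap and Lta4h, and the lowest value was -0.72 (Ptger2, Ptger4). For each member that passed in a comparison, the 2 genes with the highest Pearson r were taken among genes whose standard deviation over the arrays was within a factor of 2. For Ptgs2 the nearest of 1266 such genes was Mgst2 (r = 0.998, n = 6 arrays), itself on the pathway list, followed by Wfdc21 (0.986). For Ptges they were Egln3, a prolyl hydroxylase of the oxygen-sensing pathway (0.992), and Sgms2, a sphingomyelin synthase (0.992). For Ptger4 they were Sned1 and Cad (both 0.997), for Alox5 the chemokine receptor gene Ccr1 (0.993) and the transferrin gene Trf (0.993), for Alox15 Vrk1 and Gabbr2 (both 0.990) and for Ltc4s the annexin gene Anxa3 (0.998) and Cyth1 (0.9915).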

How the data were processed

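Sorted mouse bone marrow cells were profiled on 6 Affymetrix arrays, 2 per population. The authors deposited log2 values, made with Affymetrix Expression Console 1.1 and RMA per the submitters' processing notes. RMA corrects background, equalises the arrays' distributions and summarises probes, which compresses small differences. Its settings and the genome build are not given in the sources used here. The table held 35556 probe sets without missing values, with array medians of 6.18 to 6.28. The platform annotation gave 1 gene for 21789 probe sets, several for 1621 and none for 12146. The probe set with the highest mean was kept for the 999 genes with several, leaving 19938. Limma 3.58.1 (R 4.3.3) was fitted to all 6 arrays, with 3 group means, 3 residual and 4.34 prior degrees of freedom, no filter, two-sided tests and Benjamini-Hochberg adjustment over all genes. On data simulated from its own fitted variances, with 200 genes changed in GM-BMDC alone, it found 72.0% at 2-fold in GM-BMDC minus GM-BMM. In GM-BMDC minus M-BMM it found 75.0%, and at 4-fold 98.5% in both. False calls were 4 and 10 at 2-fold, and 3 and 9 at 4-fold. Such data follow the model, so they check the fit and do not measure its power on these arrays. GM-BMM minus M-BMM was given no change. Arrays have no read depth, and their number limits the precision (median standard error 0.132).

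The members and lists were chosen with earlier results of these data known. Text names all members, each pathway gene past the threshold in a comparison, and the 2 genes most like each member that passed. Pathway genes that did not pass, the marker genes, Xist and Eif2s3y were named after their values were seen. The 16 alternatives left out each array, and both GM-CSF arrays numbered 1, added a replicate block or a covariate of 3 Y-linked genes, and changed the arrays fitted, variance model, filter, centring, probe sets, features and fold. Genes under the median signal have 15. These alternatives are not independent. Leaving out either array of the population not compared equals fitting only the groups compared, so the same lost call can count more than once. Averaging probe sets leaves the values of the measured members unchanged, and the fold minimum keeps the main estimates. Promoter sequences are RefSeq's (GRCm38.p6). Figures were drawn with matplotlib 3.10.9, and tables made with pandas 2.3.3 and NumPy 2.4.6 in Python 3.11.15.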

Additional observations from a re-analysis of the deposited data

How the results depend on the processing

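Of 1044 values of single genes recomputed under the alternatives, 919 kept their side of the threshold, 100 lost a call, 25 gained 1 and 0 called differences changed sign. With each array left out in turn, the members called were 2 to 5 in GM-BMDC minus GM-BMM (main 4) and 1 to 6 in GM-BMDC minus M-BMM (main 5), and 2 to 4 in GM-BMM minus M-BMM (main 3). Over all 19938 genes, 1102 to 2055 (main 2079), 1288 to 3412 (main 3323) and 319 to 1347 (main 1235) were called in the same settings. Other pathway genes called were 3 to 9 in GM-BMM minus M-BMM (main 7), 4 to 12 in GM-BMDC minus M-BMM (main 10) and 4 to 7 in GM-BMDC minus GM-BMM (main 6). In GM-BMDC minus GM-BMM, 2 members passed with only the groups compared, with all probe sets as features and with a 2-fold minimum. All probe sets as features left 3 other pathway genes. Over all genes the share called fell as well, to 6.05%, 5.11% and 4.69% in these 3 settings, from 10.4% in the main test. In GM-BMDC minus M-BMM, 3 members passed with all probe sets as features, with a 2-fold minimum and with the Y-linked covariate, and 5 other pathway genes with a 2-fold minimum. Of all genes, 10.2%, 6.95% and 10.6% were called in these 3 settings, against 16.7% in the main test. A fold minimum is stricter by construction, and the cause of the other changes was not tested. With the replicate number as a replicate block, 4 members passed in GM-BMDC minus GM-BMM (3 of them in the main test), 4 in GM-BMM minus M-BMM (3) and 5 in GM-BMDC minus M-BMM (5). The block called 9.85%, 5.9% and 15.3% of all genes in these comparisons, against 10.4%, 6.19% and 16.7% in the main test. Differences of replicate 2 and 1 correlated over genes at 0.02 (GM-BMDC, GM-BMM), 0.03 (GM-BMM, M-BMM) and -0.13 (GM-BMDC, M-BMM). These values cannot decide whether the numbers pair the arrays, since every other difference between replicates, as in the macrophage markers of GM-BMDC, enters them. The Y-linked genes were low in replicate 1 and high in replicate 2 of both GM-CSF populations. The groups of 2 allow no outlier test.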
